A study of Mus musculus with 10 samples.

Results

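The antigen presentation genes described here are 10 genes given by name: the MHC class II chains H2-Aa, H2-Ab1 and H2-Eb1, the class II loading genes Cd74, H2-DMa and H2-DMb1, the class I chains H2-K1 and H2-D1, their partner B2m, and the peptide transporter gene Tap1. They were measured by bulk RNA-seq of interscapular brown adipose tissue (iBAT), and all 10 were among the 13739 genes, of 41249 in the tables, that passed the filter of a mean above 1 CPM (counts scaled to a common library size, normalized with TMM factors). The depots came from 5 Axl KO and 5 wild-type (WT) littermate male mice kept at room temperature on a high-fat diet (HFD) for 24 weeks from an age of 6 to 8 weeks by the labels. The paper describes an older starting age and a longer diet for these mice than the labels do. All 10 mice were on the diet, so no mouse on chow stands beside them. Axl KO mice lack the receptor tyrosine kinase Axl in the whole body from conception, through a knockout-first cassette with a splice acceptor, a lacZ reporter and a neomycin selection gene in an intron of Axl, in mice bred from embryonic stem cell clones to C57Bl6. The deletion was therefore not limited to adipocytes, and leukocytes of the depot lacked Axl as well. Each library came from 1 mouse, and the p-values below measure the spread between these mice.

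MHC class II molecules hold peptides of proteins taken up by a cell and are carried mainly by macrophages, dendritic cells and B cells, where CD4 T cells read them. The invariant chain Cd74 escorts the newly made class II pair and blocks its groove, and the H2-DM pair helps to exchange its remnant for a peptide. MHC class I molecules are carried by nearly all nucleated cells, hold peptides from the cell's own proteins that the Tap transporter brings into the endoplasmic reticulum, and need B2m to reach the surface. Both sets are raised by interferon-γ. In whole brown fat, class II transcripts are thought to come mainly from the immune cells of the depot, and class I transcripts from adipocytes, vessels and immune cells together. The cells of origin were not measured here.

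By the GENCODE M21 annotation of GRCm38, 8 of the 10 genes lie in the MHC on chromosome 17, all protein-coding. They run from H2-K1 (chr17:33996017-34000347, minus strand) through H2-DMa, H2-DMb1, Tap1, H2-Ab1, H2-Aa and H2-Eb1 to H2-D1 (chr17:35262730-35267499, plus strand). B2m lies on chromosome 2 (chr2:122147686-122153083, plus strand), and Cd74 also lies outside the MHC. Class I and class II genes are known for a shared promoter layout, in which an X box is followed by a Y box that holds the letters ATTGG and is bound by the factor NF-Y. The stretches below are shown because they let class II and class I promoters be read side by side. They come from the RefSeq promoter table for GRCm38.p6, which had an entry for 8 of the 10 genes, and are written 5′ to 3′ along the gene's strand. The capitals mark TGANG, and ATTGG after it.
H2-Aa: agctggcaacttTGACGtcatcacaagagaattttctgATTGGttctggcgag
H2-Eb1: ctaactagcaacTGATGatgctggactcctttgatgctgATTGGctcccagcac
H2-K1: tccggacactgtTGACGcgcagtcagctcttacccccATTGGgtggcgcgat
B2m: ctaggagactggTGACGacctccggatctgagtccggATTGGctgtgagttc

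The stretch of H2-Aa is chr17:34287857-34287909 on the minus strand, that of H2-Eb1 chr17:34305769-34305822 on the plus strand, that of H2-K1 chr17:34000349-34000400 on the minus strand and that of B2m chr2:122147597-122147648 on the plus strand. All 4 lie before the annotated start of the gene. ATTGG, or CCAAT on the other strand, was present in the 250 bases before the start of 8 of the 8 genes with an entry, and of 37.5% of all 27025 genes in the table. TGANG followed after 15 to 30 bases by ATTGG, searched on both strands, was present in 6 of the 8 genes, with 20 to 23 bases in between, and in 3.77% of all genes. The 6 genes are the 4 above with H2-DMb1 and H2-D1, whose stretches lie within an annotated first exon, and this layout was chosen after the promoters had been read. H2-DMa and Tap1 held ATTGG or CCAAT without it. The core of the interferon-stimulated response element, searched on both strands, was present in 1 of the 8 genes, B2m, and in 3.46% of all genes. These matches are descriptions of letters in a window, not of binding.

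The deposited tables held 5431014 to 9580215 counts per mouse. For Axl, the deleted gene, Axl KO mice had 3 to 15 counts and WT mice 224 to 383. The level in Axl KO mice was 3.64% of that in WT mice, and Axl was the 1 gene of 13739 (0.00728%) with an adjusted p under 0.05 (edgeR quasi-likelihood test, adjusted p = 1.1e-07). DESeq2 called 9 genes, none of them an antigen presentation gene of the 10. Without adjustment, edgeR gave p under 0.05 for 1154 genes (8.4%; 3.86% lower and 4.54% higher in Axl KO mice), and DESeq2 for 952. Of the brown adipocyte markers, 5 of 10 were higher in Axl KO mice at an unadjusted p under 0.05 (Ucp1, Cox7a1, Cox8b, Dio2 and Elovl3), and the summed level of skeletal muscle markers ranged from 4.66 to 2332 CPM in Axl KO and from 553 to 2758 CPM in WT mice.

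In HFD-exposed mice, no antigen presentation gene passed the adjusted threshold between the genotypes, and none of the 10 had an unadjusted p under 0.05 in either direction, a mark that 8.4% of all genes reached. The groups overlapped for each of the 10 genes, whereas 1.35% of all genes did not overlap. Of the 10, 8 had a lower fitted level in Axl KO mice, as did 50.2% of all genes, and the exceptions were H2-DMa and H2-K1. The median log2 fold change of Axl KO against WT was -0.13 for the 6 class II genes and -0.09 for the 4 class I genes, against -0.00059 for all tested genes. With 1 mouse left out, the class II median ranged from -0.07 (without WT replicate 5) to -0.24 (without Axl KO replicate 3) and the class I median from -0.0056 (without Axl KO replicate 5) to -0.20 (without Axl KO replicate 3). These genes were measured in the same mice and are thought to share regulators and, in part, cells of origin, so their shared sign is not 10 separate results. Since RNA of the whole depot was sequenced, fewer cells of a type and less RNA per cell cannot be told apart for any gene below.

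**Figure D1:**
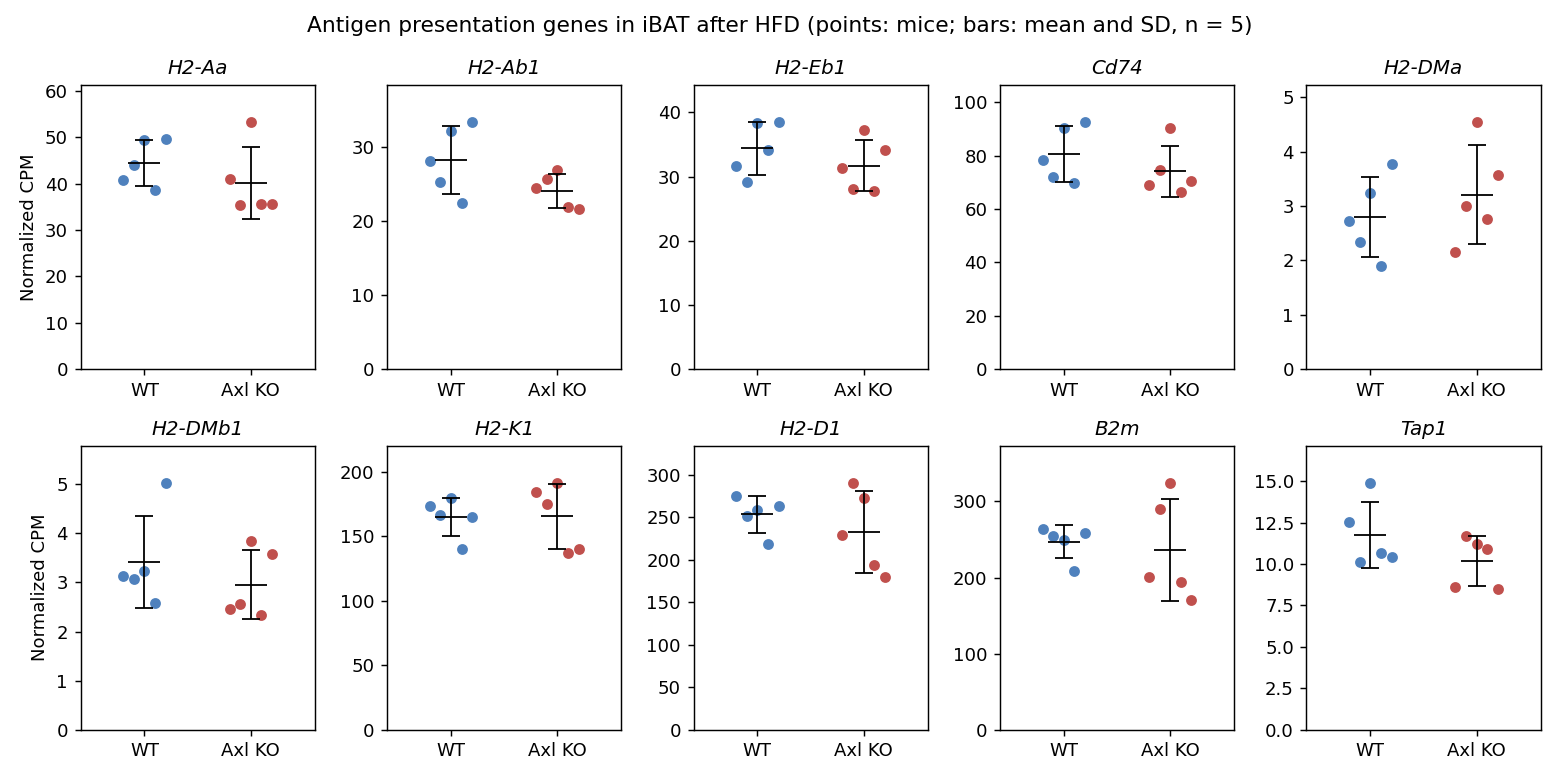
Normalized CPM (vertical axes, each from 0) of the 10 antigen presentation genes in WT (blue) and Axl KO (red) mice. Points are mice, and lines and bars are the mean and SD of 5 mice. The genotypes overlap in each panel, and B2m spreads from 171 to 325 CPM in Axl KO mice but from 209 to 264 CPM in WT mice.

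Among the class II chains, H2-Ab1 had the lowest p-value. H2-Ab1 encodes the β chain of the I-A molecule, the class II pair that C57BL/6 mice carry. Its level was 24.4, 25.7, 26.8, 21.8 and 21.6 CPM in Axl KO replicates 1 to 5 and 28.1, 25.2, 32.1, 22.4 and 33.3 CPM in WT replicates 1 to 5. All 5 Axl KO mice lay below the WT median, but WT replicates 2 and 4 lay within the Axl KO range. Axl KO mice averaged 24.1 ± 2.30 CPM and WT mice 28.2 ± 4.62 CPM (SD, n = 5 each). The log2 fold change was -0.23 with a standard error of 0.11 (edgeR, p = 0.0602, adjusted p = 0.601), and a two-sided exact permutation test of the means gave p = 0.119, where 5 against 5 mice allow 0.00794 at the lowest. The 95% interval of the fold ran from 0.721 to 1.01 times the WT level.

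H2-Aa, the α chain that pairs with H2-Ab1, measured 41.0, 35.3, 53.3, 35.5 and 35.6 CPM in Axl KO and 40.7, 43.9, 49.4, 38.7 and 49.6 CPM in WT replicates 1 to 5. Axl KO replicate 3 was the highest of all 10 mice, and 3 of the other 4 Axl KO mice were lower than any WT mouse. The log2 fold change was -0.14 ± 0.12 (SE, edgeR, adjusted p = 0.751; two-sided exact permutation p = 0.349), with a 95% interval of the fold from 0.756 to 1.08. Without Axl KO replicate 3 the log2 fold change was -0.27 (edgeR, adjusted p = 0.204).

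H2-Eb1 encodes the β chain of the I-E molecule, which does not reach the surface in C57BL/6 mice, where its α chain gene is inactive, although the β chain is still transcribed. It measured 31.3, 28.1, 37.3, 27.8 and 34.1 CPM in Axl KO and 31.7, 29.2, 38.4, 34.2 and 38.5 CPM in WT replicates 1 to 5. The ranges nearly coincided, and the log2 fold change was -0.11 ± 0.10 (SE, edgeR, adjusted p = 0.767; two-sided exact permutation p = 0.302).

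Cd74, the invariant chain (chr18:60803848-60812652, plus strand), had the highest level per length of the class II genes in both genotypes. It measured 68.8, 74.7, 90.3, 66.5 and 70.4 CPM in Axl KO and 78.4, 72.2, 90.5, 69.8 and 92.6 CPM in WT replicates 1 to 5. Axl KO replicate 3 stood with WT replicates 3 and 5 near the top, and the remaining mice of both genotypes lay between 66.5 and 78.4 CPM. The log2 fold change was -0.12 ± 0.10 (SE, edgeR, adjusted p = 0.753; two-sided exact permutation p = 0.278), and without Axl KO replicate 3 it was -0.20 (edgeR, p = 0.0451, adjusted p = 0.328).

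The H2-DM genes, whose products edit the peptide in the class II groove, were measured from few reads. H2-DMa had 11 to 39 counts per mouse and means of 3.21 ± 0.903 CPM in Axl KO and 2.79 ± 0.741 CPM in WT mice (SD, n = 5 each). H2-DMb1 had 15 to 40 counts and means of 2.96 ± 0.702 and 3.41 ± 0.942 CPM in the same order. The log2 fold changes were 0.20 for H2-DMa and -0.21 for H2-DMb1, with standard errors of 0.24 and 0.23 (edgeR, adjusted p = 0.832 and 0.813), so the chains of 1 molecule had opposite signs within errors as large as the values. Without Axl KO replicate 3 the value of H2-DMa was 0.02, and without WT replicate 5 that of H2-DMb1 was -0.03. The 95% interval of the fold ran from 0.799 to 1.65 for H2-DMa, which does not set apart no difference from a 1.5-fold one. H2-DMa also shares 10.4% of its exonic bases with Brd2 on the opposite strand, and the strand setting of the counting is not given in the sources used here. H2-DMb1 has a near-identical neighbour, H2-DMb2, which had 0 to 8 counts per mouse and was not tested.

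Among the class I genes, H2-K1 had the fitted value nearest to 0. This chain measured 184, 175, 191, 137 and 140 CPM in Axl KO and 174, 166, 180, 140 and 164 CPM in WT replicates 1 to 5. The Axl KO mice formed a higher set of 3 and a lower set of 2, with the WT mice within that span. Both means were 165 CPM, the log2 fold change was 0.0053 ± 0.10 (SE, edgeR, adjusted p = 0.996; two-sided exact permutation p = 0.960), and the 95% interval of the fold was 0.860 to 1.17. Class I chains have near-identical relatives, and with H2-K1, H2-D1 and the H2-Q genes summed the log2 fold change was -0.09 (edgeR, adjusted p = 0.852).

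H2-D1, the other class I chain, measured 229, 291, 272, 193 and 180 CPM in Axl KO and 275, 251, 259, 218 and 263 CPM in WT replicates 1 to 5. Axl KO replicates 4 and 5 were lower than any WT mouse and replicate 2 was higher than any, so the Axl KO group enclosed the WT group. The log2 fold change was -0.12 ± 0.12 (SE, edgeR, adjusted p = 0.807; two-sided exact permutation p = 0.421).

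B2m, the chain without which class I molecules do not reach the surface, showed the same enclosing pattern. It measured 200, 290, 325, 194 and 171 CPM in Axl KO and 264, 255, 250, 209 and 258 CPM in WT replicates 1 to 5. Its coefficient of variation was 28.4% among Axl KO and 8.90% among WT mice, a difference in spread that was not tested. The log2 fold change was -0.07 ± 0.16 (SE, edgeR, adjusted p = 0.926; two-sided exact permutation p = 0.746), and it ranged from -0.21 without Axl KO replicate 3 to 0.03 without Axl KO replicate 5.

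Tap1 encodes 1 chain of the peptide transporter. It measured 8.64, 11.7, 11.2, 10.9 and 8.47 CPM in Axl KO and 12.6, 10.2, 14.9, 10.7 and 10.4 CPM in WT replicates 1 to 5. Axl KO replicates 1 and 5 lay below all WT mice and WT replicates 1 and 3 above all Axl KO mice, with the other 6 mice intermixed. The log2 fold change was -0.20 ± 0.14 (SE, edgeR, adjusted p = 0.701; two-sided exact permutation p = 0.214).

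**Figure D2:**
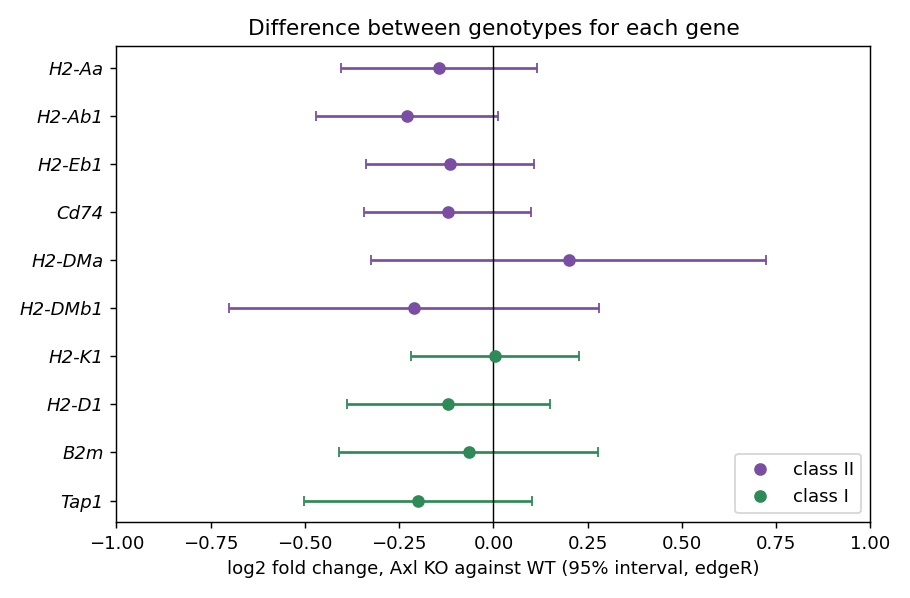
Log2 fold change of Axl KO against WT mice (horizontal axis) for each of the 10 genes, with 95% intervals from edgeR over 5 mice per genotype. Each interval holds 0, that of H2-Ab1 (upper limit 0.01) most narrowly, and the intervals of H2-DMa and H2-DMb1 are the widest.

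Summed over the 6 class II genes, the mean level was 176 CPM in Axl KO and 194 CPM in WT mice. The Axl KO mice had 170, 169, 216, 157 and 169 CPM, and the WT mice 185, 176, 217, 170 and 223 CPM. Axl KO replicate 3 thus stood among the highest WT mice, while the other 4 Axl KO mice lay at the lower end of the WT range or below it. That mouse also had the highest leukocyte marker sum of all 10 mice, 47.0 CPM, against 27.2 to 34.3 CPM in the other Axl KO mice, and its part in the genotype difference is given by the fits without it. Without it, 3 of the 10 genes (H2-Aa, H2-Ab1 and Cd74, each lower in Axl KO mice) had an unadjusted p under 0.05 and none an adjusted one, but in the same fit 14.8% of all genes reached that mark, 7.05% as lower in Axl KO mice. The class I sum was 645 ± 135 CPM in Axl KO and 677 ± 57.3 CPM in WT mice.

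The genes that control and serve both pathways were examined as lists. Of 74 listed genes, 73 were in the tables by name and 59 were tested, with 30 higher and 29 lower in Axl KO mice, a median log2 fold change of 0.00067 and none past the adjusted threshold. An unadjusted p under 0.05 was found for 3 of the 59, or 5.08%, beside 8.4% among all genes. The H2-Ea pseudogene was not matched by name and was not analysed here.

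In the class II pathway, 14 of 19 listed genes were tested, with 8 higher and 6 lower. Ciita, the transactivator on which class II transcription depends, had 10 to 33 counts per mouse and a log2 fold change of -0.05 ± 0.30 (SE, edgeR, adjusted p = 0.978). The subunits of NF-Y, which binds the Y box shown above, include both genes of this list with an unadjusted p under 0.05, with opposite signs: the log2 fold change was -0.23 for Nfya and 0.19 for Nfyc (edgeR, adjusted p = 0.571 for each). The invariant chain protease Ctss had 0.06 ± 0.24 (SE, adjusted p = 0.965).

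In the class I pathway, all 13 listed genes were tested, 6 higher and 7 lower, with log2 fold changes between -0.15 and 0.13. Nlrc5, the transactivator of class I genes, had a log2 fold change of -0.02 ± 0.11 (SE). Tap2, the partner chain of Tap1, had -0.10 ± 0.08, and the immunoproteasome subunits Psmb8 and Psmb9 had -0.0043 ± 0.14 and -0.15 ± 0.18 (SE, edgeR, adjusted p = 0.738, 0.998 and 0.827 for the 3 genes in this order). Psmb9 lies head to head with Tap1, and 3.87% of the exonic bases of Tap1 overlap it on the opposite strand.

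Of 18 class I-like chain genes, 13 were tested and H2-T24 had an unadjusted p under 0.05, with a log2 fold change of 0.29 (edgeR, adjusted p = 0.579). Interferon-γ itself, Ifng, had 1 count in all 10 mice together. Of 17 genes of the interferon-γ response, 15 were tested, 8 higher and 7 lower. Irf1, an interferon-induced factor acting on both MHC classes, had a log2 fold change of -0.26 (edgeR, adjusted p = 0.641). Of 7 costimulation genes, 4 were tested, 1 higher and 3 lower, with a median of -0.29 and a lowest adjusted p of 0.644.

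**Figure D3:**
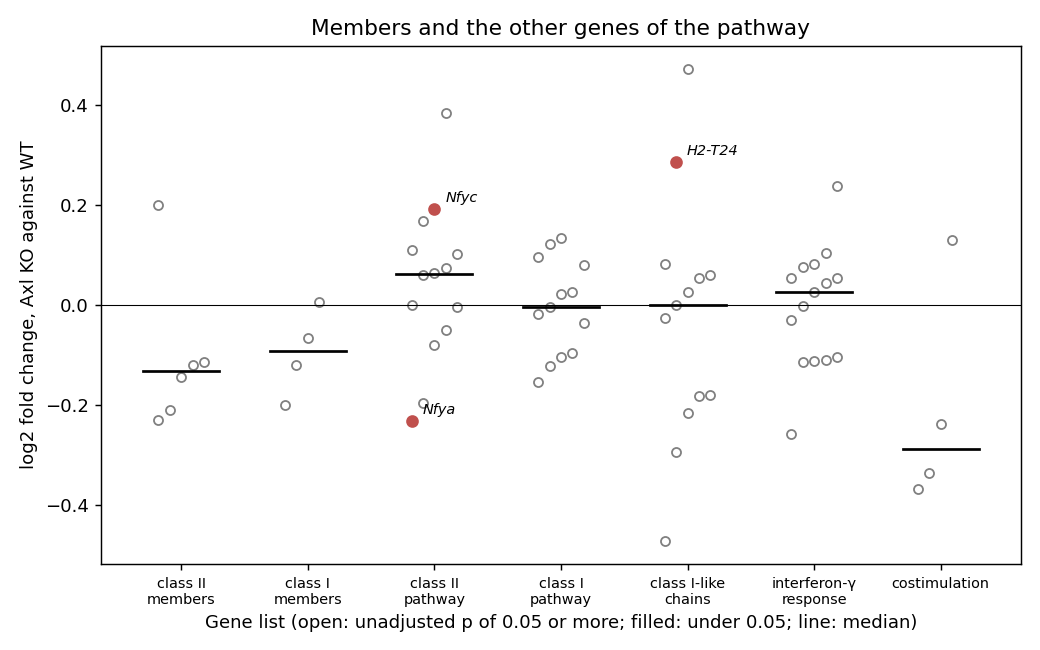
Log2 fold change of Axl KO against WT mice (vertical axis) for each tested gene of the class II and class I members and of 5 lists of pathway genes. Filled points have an unadjusted p under 0.05 in edgeR, and lines are list medians. Points scatter on both sides of 0 in each list, and the 3 filled ones are Nfya, Nfyc and H2-T24.

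Class II levels in whole tissue depend on how many cells carrying them were sampled, so markers of those cells were summed per mouse. Leukocyte markers (Ptprc, Coro1a, Laptm5, Cd52 and Cd53) summed to 27.2 to 47.0 CPM in Axl KO and 27.2 to 38.5 CPM in WT mice, and the log2 fold change of Ptprc was -0.08 ± 0.16 (SE, edgeR, adjusted p = 0.911). The 12 macrophage markers summed to 162 to 288 CPM and 181 to 272 CPM, with 6 of 11 tested markers higher in Axl KO mice. The 8 dendritic cell markers summed to 26.7 to 36.6 CPM and 28.9 to 35.9 CPM, although 2067 of their 2317 counts were of Zbtb46, which vessels also express. The 7 B cell markers summed to 22.1 to 43.7 CPM and 15.1 to 74.0 CPM, of which 2517 of 2687 counts were of Ighm. The 7 T cell markers, none of them at 0 over the 10 mice, summed to 0.437 to 2.45 CPM and 0.860 to 2.87 CPM, and none was tested. For these 5 lists the ranges of the genotypes overlapped and no tested marker had an unadjusted p under 0.05.

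The sums of lymph node markers did not overlap, with 0.617 to 1.503 CPM in Axl KO and 1.64 to 2.20 CPM in WT mice. They rested on 107 counts over 10 mice, of Cxcl13, Cr2, Cd22 and Ltb, while Ccl21a, Glycam1 and Madcam1, the other 3 markers of the list, were at 0. The part of a sampled lymph node in the class II levels was not tested. Across mice within the genotypes the class II mean had a Pearson's r of 0.26 with this list. That r was computed after each genotype's mean was subtracted, so it cannot speak to the difference between the genotypes.

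The other class II genes varied with Cd74 among mice of the same genotype, and H2-D1 varied with H2-K1. The relations of H2-K1 to B2m and to Tap1 did not pass the test. Within the classes, only pairs with Cd74 or with H2-K1 were tested. Values were log2(CPM + 0.5), averaged over the genes of a class or list, also those with few or no counts. Each genotype's mean was subtracted from them. Over the 10 mice, 13 relations were computed, with permutation p-values from 100000 resamples and Benjamini-Hochberg adjustment over the 13. The points share library and depth, which was not tested as a source of the relations.

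Of the class II genes, Cd74 was most closely related to H2-Ab1 (Pearson's r = 0.89, permutation p = 0.00084, adjusted p = 0.0109; Spearman's rho = 0.90, permutation p = 0.0043). The relation was 0.79 within Axl KO and 0.98 within WT mice, and 0.90 without the 2 mice farthest from the median of Cd74, Axl KO replicate 3 and WT replicate 5. Cd74 was also related to H2-DMa (r = 0.88, permutation p = 0.0026, adjusted p = 0.0152; rho = 0.88, permutation p = 0.0037), with r = 0.74 without the same 2 mice. For H2-Aa (r = 0.83, permutation p = 0.0117, adjusted p = 0.0253; rho = 0.68, permutation p = 0.0428) the value without them was 0.57.

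For H2-Eb1 (r = 0.75, permutation p = 0.0286, adjusted p = 0.0413; rho = 0.68, permutation p = 0.0488) the value without the 2 mice was 0.49. For H2-DMb1 (r = 0.75, permutation p = 0.0071, adjusted p = 0.0184; rho = 0.81, permutation p = 0.0072) it was 0.39. Without Axl KO replicate 3 and WT replicate 5, r thus fell for H2-Aa, H2-Eb1 and H2-DMb1, less so for H2-DMa, and not for H2-Ab1. Leaving out the mice farthest from the median narrows the range of Cd74, which tends to lower r by itself. How far the relations rested on these 2 mice was therefore not settled.

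In class I, H2-K1 was related to H2-D1 (r = 0.84, permutation p = 0.0178, adjusted p = 0.0289; rho = 0.70, permutation p = 0.0828), with r = 0.78 without Axl KO replicate 4 and WT replicate 4. Its relation to B2m (r = 0.75, permutation p = 0.0843, adjusted p = 0.110; rho = 0.64, permutation p = 0.112) and to Tap1 (r = 0.36, permutation p = 0.272, adjusted p = 0.322; rho = 0.31, permutation p = 0.442) did not pass the threshold. Over all pairs of the 10 genes, given without a test, the median r was 0.70 for the 15 pairs within class II, 0.65 for the 6 pairs within class I and 0.40 for the 24 pairs between the classes. The closest pair of all was H2-D1 with B2m, at 0.93, and the only negative one was H2-DMb1 with Tap1, at -0.14.

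The mean of the 6 class II genes was related to the leukocyte list (r = 0.81, permutation p = 0.0047, adjusted p = 0.0152; rho = 0.77, permutation p = 0.0135), the macrophage list (r = 0.85, permutation p = 0.0046, adjusted p = 0.0152; rho = 0.90, permutation p = 0.0028) and the dendritic cell list (r = 0.80, permutation p = 0.0154, adjusted p = 0.0286; rho = 0.79, permutation p = 0.0183). Without Axl KO replicate 3 and WT replicate 5, the mice farthest from the median of the class II mean, r was 0.55, 0.58 and 0.51. The narrower range tends to lower r here as well, so how far the relations rested on those mice was not settled. The relation with the B cell list was 0.17 (permutation p = 0.647, adjusted p = 0.647; rho = 0.03, permutation p = 0.949) and that with the lymph node list 0.26 (permutation p = 0.492, adjusted p = 0.533; rho = 0.44, permutation p = 0.223).

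**Figure D4:**
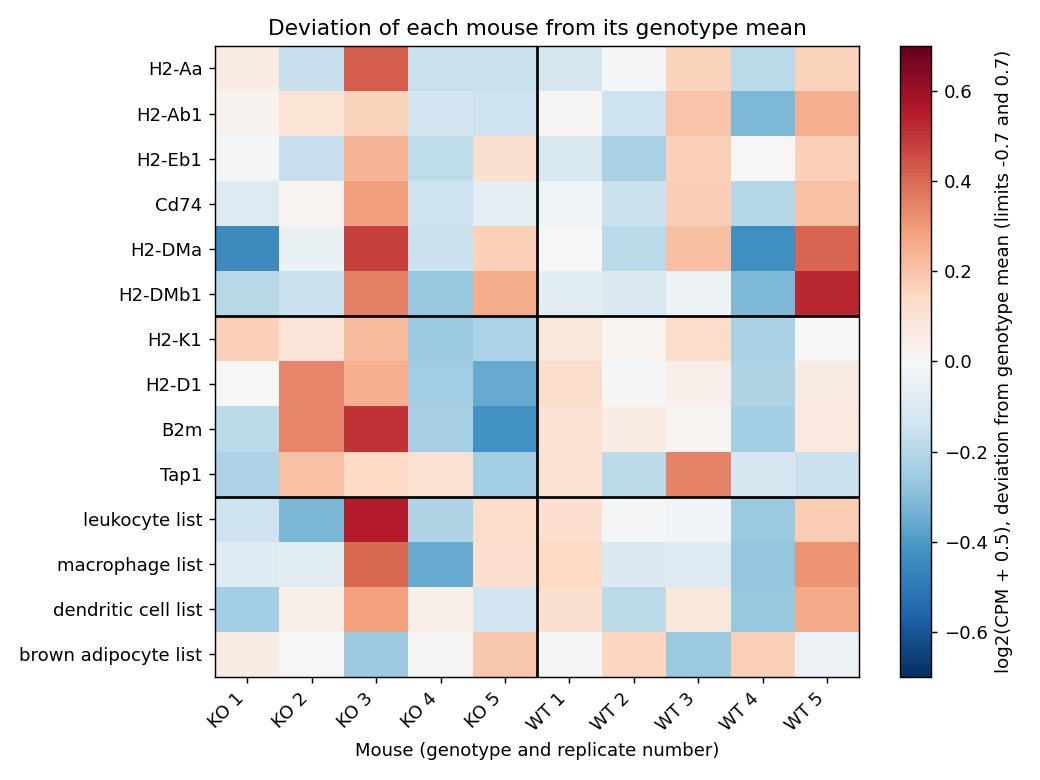
Deviation of each mouse (columns) from its genotype mean, in log2(CPM + 0.5), for the 10 genes and 4 cell type lists (rows), with red above and blue below the mean. Axl KO replicate 3 is above its genotype mean for each of the 10 genes and for the leukocyte list, and WT replicate 4 is below it for the class II genes other than H2-Eb1 and for the class I genes.

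By a fixed rule, the genes outside the lists whose pattern over the 10 mice was most like the class II mean were Dolpp1, Ilf2, Apc2, Selplg and Casp8, with Pearson's r of 0.93 to 0.95. Selplg encodes the selectin ligand on leukocytes and Casp8 a caspase of death receptor signaling. For the class I mean they were Ugt1a5, Gm15675, R3hcc1, Cxcl9 and Ugt1a9, with r of 0.96 to 0.98. Cxcl9 is a chemokine induced by interferon-γ, and the Ugt1a genes share exons, so that their counts are not separate measurements. As the highest of 13739 values these r are extreme by choice, and 5% of all genes exceeded 0.62 with the class II mean and 0.68 with the class I mean.

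Levels of different genes were compared as CPM per kilobase of annotated exon. In WT mice (mean ± SD, n = 5) B2m was highest at 287 ± 25.6, followed by H2-D1 at 98.2 ± 8.23 and H2-K1 at 56.1 ± 5.10. Cd74 came next at 48.1 ± 6.22, above the class II chains H2-Eb1 at 17.7 ± 2.11, H2-Aa at 11.7 ± 1.31 and H2-Ab1 at 10.99 ± 1.80. Tap1 at 2.15 ± 0.366, H2-DMb1 at 2.03 ± 0.560 and H2-DMa at 0.810 ± 0.215 were lowest.

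The order of the 10 means was identical in Axl KO mice. In 7 of the 9 steps of this order the upper gene was higher in 5 of 5 WT mice, with an exact sign-flip permutation p of 0.0625, the lowest that 5 mice allow. The upper gene was higher in 4 of 5 WT mice for H2-Aa over H2-Ab1 (exact permutation p = 0.188) and for Tap1 over H2-DMb1 (exact permutation p = 0.688). The order was taken from the means of these same mice, and with 5 mice no step can fall under 0.05. With the longest transcript as the length, H2-Ab1 was at 23.3 ± 3.81 and moved up to the fifth place, above H2-Eb1 and above H2-Aa at 13.8 ± 1.54. In that order H2-K1 at 88.0 ± 8.00 and H2-DMa at 1.39 ± 0.370 kept their places. The spread between mice does not measure this dependence on the length. Of the 13719 genes past the filter with an annotated length, 98.7% had a lower WT level than B2m, 93.9% a lower one than Cd74 and 13.9% a lower one than H2-DMa.

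**Figure D5:**
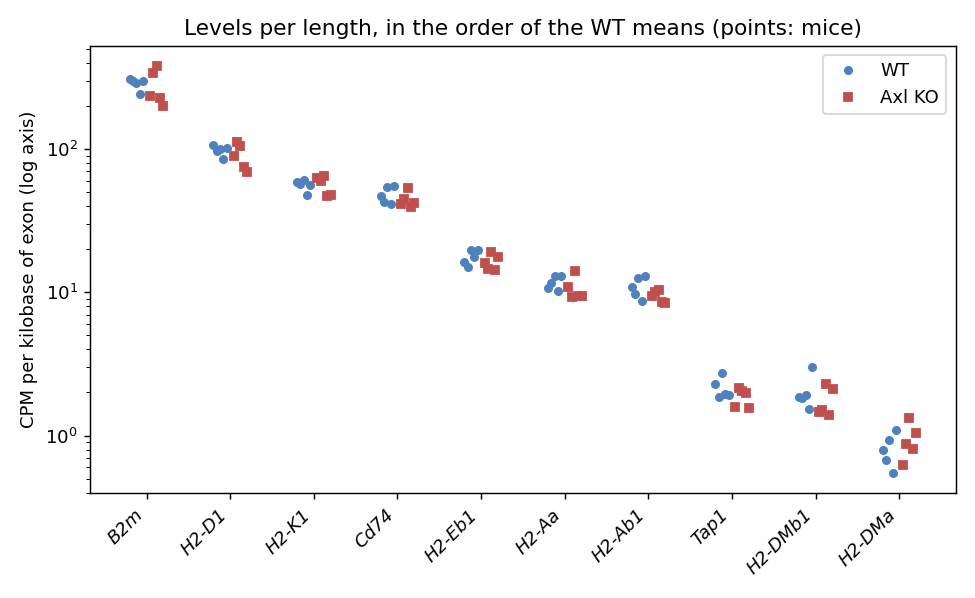
Level of each gene in CPM per kilobase of exon (vertical log axis), ordered by the WT mean, with 1 point per WT (blue circles) and Axl KO (red squares) mouse. B2m is at the top (WT mean 287) and H2-DMa at the bottom (WT mean 0.810), and the genotypes overlap for each gene.

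Proportions between partner transcripts were also computed in each mouse, without a test between the genotypes. Cd74 per H2-Ab1, both per kilobase, was 4.71 ± 0.351 in Axl KO and 4.40 ± 0.220 in WT mice (SD, n = 5 each), and 2.65 ± 0.197 and 2.47 ± 0.123 with the longest transcript as the length. B2m per summed H2-K1 and H2-D1 was 1.85 ± 0.258 in Axl KO and 1.86 ± 0.0499 in WT mice, so that Axl KO mice spread more widely around nearly the same mean. Transcript proportions do not give those of the proteins, which were not measured here.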

How the data were processed

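RNA of whole, snap-frozen iBAT from 5 Axl KO and 5 WT mice was sequenced, with 1 library per mouse. The authors deposited 1 table of raw read counts per Ensembl gene for each mouse. The paper's methods name Trim Galore, hisat2 and rRNA-depleted RNA, whereas the submitters' processing notes name Trimmomatic 0.36, STAR 2.6.1c and GRCm38.p5 and the labels polyadenylated RNA. The counting tool, its strand setting and its treatment of multi-mapping reads are not given in the sources used here, so values of near-identical or overlapping genes are uncertain. Of 41249 identifiers, 41163 matched GENCODE M21. Genes with a mean above 1 CPM were tested with edgeR 4.0.16 in R 4.3.3 (TMM, quasi-likelihood, no covariate, Benjamini-Hochberg over 13739 genes, threshold 0.05). This procedure was tested on simulated data with planted differences larger than those of the 10 genes. That test does not cover differences of their size. The coefficient of variation between mice was 14.8%, and libraries of 1 genotype differed far beyond counting noise. Exact permutation tests compared single values. DESeq2 1.42.0, RLE factors, filterByExpr, no filter, a robust fit, protein-coding genes alone, summed near-identical genes, a replicate block and each mouse left out were the alternatives. The genes, lists and tests were chosen with earlier results of these data known. A gene of the interferon-γ list is not reported here, and the list counts leave it out. Genes named beyond the 10 were those of a fixed set and those with an unadjusted p under 0.05 in a list. The labels do not state that replicate numbers pair the mice, and no pairing was used in the main test.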

Additional observations from a re-analysis of the deposited data

Results flagged for a closer look

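Among 44 groups of 5 mice, 5 held a mouse whose distance to its nearest neighbour exceeded 0.71 of the group's range (Dixon's 95% value), where chance gives about 2.2. The groups use the same mice and the class sums contain the single genes, so the flags are not separate and an excess cannot be read from them. The H2-DMb1 level of WT replicate 5 was 5.03 CPM, against 3.24 CPM in the next WT mouse. The B2m level of WT replicate 4 was 209 CPM, below the next WT mouse at 250 CPM, and its class I sum was 578 CPM, below the next at 683 CPM. The class II sum of Axl KO replicate 3 was 216 CPM, above the next Axl KO mouse at 170 CPM. Axl in Axl KO replicate 4 was 0.437 CPM, below the next Axl KO mouse at 1.69 CPM.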

How the results depend on the processing

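No antigen presentation gene passed the adjusted threshold under any alternative, and the lowest adjusted p of any of the 10 was 0.204 (H2-Aa without Axl KO replicate 3, edgeR). The count of genes past the threshold was 1 in each edgeR fit and 9 with DESeq2. The number of the 10 with an unadjusted p under 0.05 was 1 without a filter on low counts (H2-Ab1). In that fit 6.49% of all genes reached this mark. With 1 mouse left out the number was 0 to 3. It was 3 without Axl KO replicate 3, where 14.8% of all genes reached the mark. It was 1 without WT replicate 2 or 4 (H2-Ab1 in both), where 7.7 and 7.9% did. For the 59 pathway genes it was 2 to 10 with 1 mouse left out and 3 with all mice. It was 10 without Axl KO replicate 3, 6 without Axl KO replicate 2 and 5 without WT replicate 3. The shares of all genes were 8.4% with all mice and 14.8, 7.95 and 7.39% in these 3 fits. H2-K1 changed sign with the replicate block (log2 fold change -0.0028), with summed class I chains (-0.087) and over the fits with 1 mouse left out (-0.053 to 0.067), and B2m did so in the last (-0.21 to 0.029). The other 8 kept their sign. The replicate block left 1 call. Same-numbered mice correlated between -0.36 and 0.37 in their deviations from the genotype means, which does not settle whether the numbers pair them. The correlation of class II with B cell markers was -0.53 without the 2 farthest mice, and that of H2-K1 with B2m was 0.74 (permutation p = 0.0183, adjusted p = 0.0265) without centring on genotype. Low counts limit H2-DMa, H2-DMb1 and Ciita, for which the 95% interval of the fold reached beyond 1.5-fold in at least 1 direction.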

Other observations

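In 9 further relations, computed over the 10 mice after centring on genotype and chosen after the values were seen, none passed an adjusted p under 0.05. The class I mean was inversely related to the brown adipocyte list (Pearson's r = -0.76, permutation p = 0.0059, adjusted p = 0.0535; Spearman's rho = -0.84, permutation p = 0.00056), with r = -0.81 within Axl KO and -0.81 within WT mice and -0.55 without Axl KO replicates 3 and 5. The class II mean had r = -0.71 with the same list (permutation p = 0.0419, adjusted p = 0.188; rho = -0.67, permutation p = 0.0549). CPM values are relative to the library size, here scaled with TMM factors of 0.977 to 1.04, so they do not sum to an exactly fixed total. The brown adipocyte list held 14820 to 20620 CPM per mouse and the class I genes 499 to 799 CPM. The part of this scaling in the relation was not tested. The class II and class I means had r = 0.49 with each other (permutation p = 0.166, adjusted p = 0.374; rho = 0.59, permutation p = 0.091).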
